A study of Mus musculus with 2 samples.

Results

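The 36 genes described here encode the enzymes and small proteins that remove reactive oxygen species, supply glutathione and thioredoxin, and bind metals. They are the superoxide dismutases, catalase, glutathione peroxidases, peroxiredoxins, the thioredoxin system, glutathione synthesis and recycling, the NRF2 regulators with heme and quinone enzymes, 3 further selenoproteins, the metallothioneins and 3 glutathione transferases. They were picked by gene symbol from a list chosen with earlier results of these data known. All 36 symbols were found among the 55536 genes of the deposited tables. Their levels were read in total RNA-seq of hippocampus from aged male mice. The animals were B6CASTF1/J, the hybrid offspring of C57BL/6J and CAST/EiJ parents, and were 18 to 20 months old. There was 1 group of 2 libraries, replicate 1 and replicate 2, each made from 300 ng of RNA with ERCC spike-ins. The labels call them biological replicates but give a shared donor record, so it is not known that they come from separate animals, and their spread may be technical. No younger animals, other strain or treatment were analysed here, so nothing can be said about a change with age.

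Superoxide dismutases turn superoxide into hydrogen peroxide, and catalase, glutathione peroxidases and peroxiredoxins then remove the peroxide. The electrons for glutathione peroxidases and peroxiredoxins come from NADPH, through glutathione and glutathione reductase or through thioredoxin and thioredoxin reductase. The transcription factor NRF2 raises many of these genes when its inhibitor KEAP1 is inactivated. In the brain much of the glutathione is made by astrocytes, and metallothionein 3 is a brain-enriched metal-binding protein.

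Of the 36 genes, 8 carry an annotated selenocysteine codon, a TGA that is read as an amino acid and not as a stop. The group spans the highest and the lowest gene of the list, Selenow and Gpx3, so the codons are shown first. Each line gives 33 bases of the sense strand of the spliced transcript in mm10, with the selenocysteine TGA in capitals.
Gpx1: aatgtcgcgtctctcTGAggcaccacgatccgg
Gpx3: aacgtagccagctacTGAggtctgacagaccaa
Gpx4: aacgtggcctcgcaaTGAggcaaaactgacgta
Txnrd1: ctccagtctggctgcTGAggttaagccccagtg
Txnrd2: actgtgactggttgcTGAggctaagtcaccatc
Selenop: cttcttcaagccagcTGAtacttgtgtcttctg
Selenow: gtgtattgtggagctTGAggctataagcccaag
Msrb1: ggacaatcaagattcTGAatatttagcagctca
In Selenow the codon lies near the start, at codon 13 of 89 with the stop codon counted (chr7:15920464-15920466, minus strand). Gpx1 has it at codon 47 of 202 (chr9:108339451-108339453), and Gpx3 and Gpx4 have it at codon 73, of 227 and of 198 codons. In both thioredoxin reductases it is the last codon but one before the stop, codon 498 of 500 in Txnrd1 and codon 526 of 528 in Txnrd2. Msrb1 has it at codon 95 of 117, and Selenop holds 10 such codons, of which the first, codon 59 of 381, is shown.

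The authors deposited 2 quantifications of each library. The first gives expected counts and TPM (transcript abundance scaled to the library and corrected for transcript length) per gene and per transcript, and the second gives estimated counts and TPM per transcript. Replicate 1 held 34563482 expected counts and replicate 2 held 32370292, so that a count of 0 allows up to 0.0868 and 0.0927 CPM (counts scaled to the library, without length correction). Marker lists of neurons, astrocytes, oligodendrocytes, microglia and endothelium were detected in full, with 5 of 5 excitatory and hippocampal neuron markers summing to 2153 and 2176 TPM. Markers of the choroid plexus differed: their sum was 36.6 TPM for replicate 1, against 696 TPM for replicate 2, 6 of 6 were higher in replicate 2, and 3 of 6 reached 1 TPM in both. The part of this difference in the levels below was not tested. In bulk tissue, fewer cells of a type and less RNA per cell cannot be told apart.

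All 36 genes were detected, here meaning 1 TPM or more in each library, against 25.7% of all genes and 57.5% of nuclear protein-coding genes. Their median level was 35.3 ± 2.31 TPM (SD of the 2 library medians, n = 2, as for every ± here), and that of the 12660 detected protein-coding genes was 14.5 ± 0.219 TPM. Above that median lay 27 of the 36, 14 were among the highest 10% of these genes, and Selenow and Mt3 were among the highest 1%. The list was chosen with earlier results of these data known, so the choice itself may favour detected and higher genes. Of 109 other genes of the wider pathway, 89 were detected. The levels of the 36 genes ran over a wide range: 14 genes reached 100 TPM, 14 lay between 10 and 100 TPM, and 8 stayed under 10 TPM. Together the 36 genes held 0.832% of the TPM of nuclear protein-coding genes in replicate 1 and 0.838% in replicate 2. When the genes were put in order of their mean, 23 of the 35 neighbouring pairs did not overlap between the libraries and 12 did. The transcripts are short, with a median length of 1310 bases weighted by TPM, against 2539 bases over detected protein-coding genes. By position, 7 of the 36 genes lie on chromosome 8, including the 3 metallothioneins, which fall within 27721 bases.

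**Figure D1:**
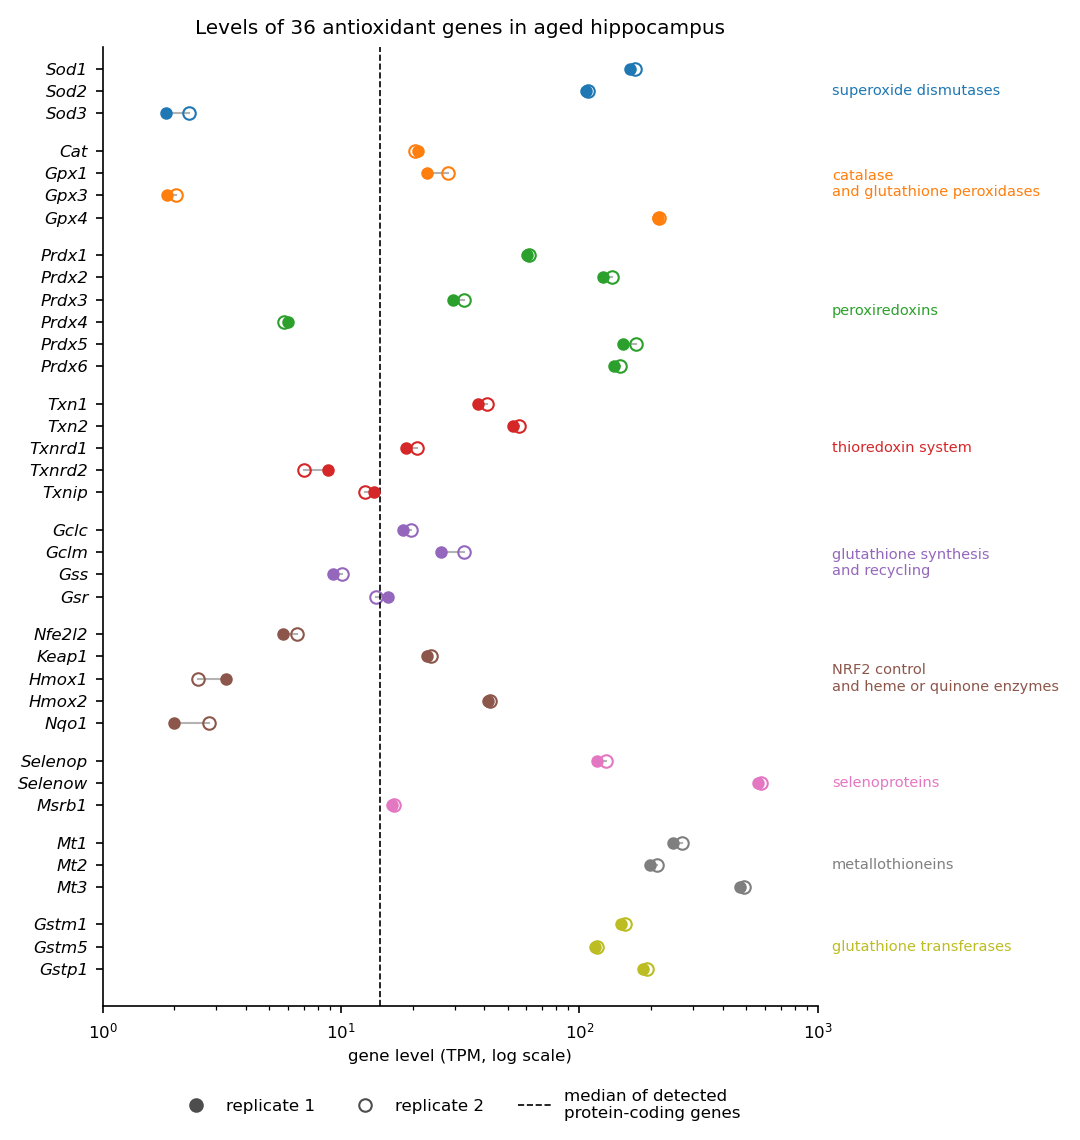
Gene level in TPM on a log axis, in replicate 1 (filled) and replicate 2 (open), for the 36 genes grouped by system. The dashed line is the median of detected protein-coding genes, 14.5 TPM; Selenow and the metallothioneins lie far to its right and Gpx3, Sod3, Nqo1 and Hmox1 far to its left.

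Among the superoxide dismutases, the cytosolic copper-zinc enzyme Sod1 (chr16:90220754-90226329) led with 163 and 171 TPM in replicates 1 and 2. The mitochondrial manganese enzyme Sod2 (chr17:13006846-13040063) had 106 and 109 TPM, and the secreted enzyme Sod3 (chr5:52363791-52371418) had 1.84 and 2.31 TPM. The 3 genes were apart in both libraries, and Sod1 held 60.3 ± 0.323% of the family's TPM. Sod1 stood 1.55 ± 0.0250 times above Sod2 by gene TPM, but 4.15 ± 0.0100 times above it when protein-coding transcripts alone were counted, since transcripts not annotated as protein-coding took 63.1% of the Sod2 TPM.

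Hydrogen peroxide is removed by catalase, a peroxisomal enzyme, and by the glutathione peroxidases. Cat had 21.01 and 20.38 TPM in replicates 1 and 2, and Gpx1, the main cytosolic glutathione peroxidase, had 23.1 and 28.2 TPM. Gpx4, which reduces lipid hydroperoxides inside membranes, had 215 and 215 TPM in the first quantification, and 308 and 320 TPM in the second. Gpx3, the secreted plasma enzyme, had 1.87 and 2.03 TPM, the lowest mean of the 36 in the first quantification. Its values overlapped those of Sod3, and in the second quantification Sod3 was lowest, at a mean of 3.22 TPM against 4.18 TPM for Gpx3. Gpx4 therefore held 87.3 ± 1.57% of the TPM of the 8 glutathione peroxidase genes, of which 5 were detected, and stood 8.47 ± 1.20 times above Gpx1. The ratio of Gpx4 to Gpx1 was 6.09 ± 0.615 over protein-coding transcripts alone, and 6.94 ± 0.783 over all transcripts in the second quantification. Gpx1 and Cat were apart in both libraries, by 1.24 ± 0.203 times.

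The peroxiredoxins use a reactive cysteine in place of selenium or heme, and all 6 were detected. Prdx5, found in mitochondria, peroxisomes and cytosol, had 152 and 173 TPM in replicates 1 and 2. Prdx6, which also acts on oxidized phospholipids, had 140 and 148 TPM. Prdx2 and Prdx1, the cytosolic enzymes, had 126 and 137 TPM for Prdx2 and 60.2 and 61.4 TPM for Prdx1. These values put Prdx5, Prdx6 and Prdx2 near each other and Prdx1 clearly below them. The mitochondrial Prdx3 had 29.6 and 32.9 TPM, and the endoplasmic reticulum enzyme Prdx4 had 5.99 and 5.74 TPM. Prdx5 held 30.3 ± 1.03% of the family's TPM, Prdx6 26.9 ± 0.572% and Prdx2 24.5 ± 0.0627%. The order at the top depended on what was counted. In the second quantification Prdx2 led with 34.1 ± 0.154%, and Prdx6 stood above Prdx5 by 1.28 ± 0.0417 times, against 0.889 ± 0.0490 times in the first. Within protein-coding transcripts of the first, Prdx6 was at 0.119 ± 0.0184 times the level of Prdx5.

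Thioredoxins hand electrons from thioredoxin reductase to the peroxiredoxins. The mitochondrial Txn2 had 52.8 and 55.9 TPM in replicates 1 and 2 and the cytosolic Txn1 had 37.8 and 41.0 TPM, so Txn2 was higher in both, by 1.38 ± 0.0242 times. Txnrd1, the cytosolic reductase, had 18.8 and 20.9 TPM. Txnrd2, its mitochondrial counterpart, had 8.82 and 6.99 TPM, so that the ratio of Txnrd1 to Txnrd2 was 2.13 in replicate 1 and 2.99 in replicate 2. Txnip, which binds and inhibits thioredoxin, had 13.7 and 12.6 TPM and lay below Txn1 in both libraries.

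Glutathione is made in a first step by glutamate-cysteine ligase, with the catalytic subunit Gclc and the modifier subunit Gclm, and in a second by Gss. Gclm had 26.4 and 32.9 TPM in replicates 1 and 2, Gclc had 18.3 and 19.7 TPM, and Gss had 9.23 and 10.1 TPM. The modifier subunit was above the catalytic subunit in both libraries, by 1.56 ± 0.160 times over all transcripts and by 1.18 ± 0.0146 times over protein-coding transcripts. In the second quantification the ratio over all transcripts was 2.93 ± 0.182. Gsr, the reductase that regenerates glutathione, had 15.7 and 14.0 TPM. The 4 genes had a median of 16.9 ± 0.0884 TPM and thus lay close to the median of detected protein-coding genes.

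The set of NRF2 regulators with heme and quinone enzymes had the lowest median of these systems, 6.11 ± 0.566 TPM. Nfe2l2, which encodes NRF2, had 5.71 and 6.51 TPM in replicates 1 and 2, and Keap1, the adaptor that marks NRF2 for degradation, had 23.0 and 23.9 TPM. Keap1 was 3.85 ± 0.251 times above Nfe2l2. The inducible heme oxygenase Hmox1 had 3.28 and 2.51 TPM, and the constitutive Hmox2 had 41.3 and 42.0 TPM. Hmox2 held 93.5 ± 1.22% of heme oxygenase TPM, and the ratio of Hmox2 to Hmox1 was 12.6 in replicate 1 and 16.7 in replicate 2. Nqo1, a quinone reductase, had 2.00 and 2.80 TPM, so that Hmox1 was above Nqo1 in replicate 1 and below it in replicate 2.

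Selenow, a small selenoprotein with a thioredoxin fold, was the highest of the 36 genes in the first quantification. It had 564 and 577 TPM in replicates 1 and 2, at rank 42 of the detected protein-coding genes. Selenop, the secreted protein that carries selenium to the brain, had 119 and 130 TPM. Msrb1, which repairs oxidized methionine, had 16.3 and 16.7 TPM. Selenow was thus 4.60 ± 0.205 times above Selenop and 34.6 ± 0.0255 times above Msrb1. With the glutathione peroxidases and thioredoxin reductases, the 8 genes with a selenocysteine codon ranged from 1.95 ± 0.113 TPM for Gpx3 to 571 ± 9.36 TPM for Selenow.

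The metallothioneins bind zinc and copper through clusters of cysteines. They lie in a row on chromosome 8, all on the plus strand, in the order Mt4 (chr8:94137197-94139031), Mt3 (chr8:94152607-94154146), Mt2 (chr8:94172664-94173568) and Mt1 (chr8:94179082-94180327). Mt3 had 475 and 492 TPM in replicates 1 and 2, Mt1 had 247 and 270 TPM, and Mt2 had 198 and 213 TPM. Mt4, which is known from stratified epithelium, had 0 counts in both libraries. The 3 detected genes did not overlap, Mt3 held 51.1 ± 0.832% of their TPM, and Mt3 was 1.87 ± 0.0725 times above Mt1. Their coding sequences are shown for the cysteine codons they share and for their likeness to each other. Cysteine codons, TGC or TGT in frame, are in capitals.
Mt1: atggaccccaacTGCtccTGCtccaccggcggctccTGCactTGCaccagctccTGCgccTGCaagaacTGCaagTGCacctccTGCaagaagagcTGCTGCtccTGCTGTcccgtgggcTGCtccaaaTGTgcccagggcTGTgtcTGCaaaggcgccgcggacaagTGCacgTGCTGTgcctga
Mt2: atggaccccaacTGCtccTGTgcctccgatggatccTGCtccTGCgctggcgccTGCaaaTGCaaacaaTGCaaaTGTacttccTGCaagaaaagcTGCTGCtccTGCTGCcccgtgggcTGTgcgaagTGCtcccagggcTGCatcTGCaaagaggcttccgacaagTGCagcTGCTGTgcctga
Mt3: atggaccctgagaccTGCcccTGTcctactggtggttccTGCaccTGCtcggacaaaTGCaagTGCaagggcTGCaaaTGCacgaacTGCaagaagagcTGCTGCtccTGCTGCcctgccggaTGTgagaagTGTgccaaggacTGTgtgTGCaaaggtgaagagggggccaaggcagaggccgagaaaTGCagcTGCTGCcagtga
Each sequence holds 20 cysteine codons, of 61 codons before the stop in Mt1 and Mt2 and of 68 in Mt3. Aligned without gaps, Mt1 and Mt2 were identical at 79.6% of bases. Mt3 was identical to Mt1 at 73.7% and to Mt2 at 75.3% of aligned bases, with 21 bases of Mt3 opposite gaps.

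The glutathione transferases join glutathione to electrophiles. Gstp1 of the pi class had 186 and 192 TPM in replicates 1 and 2. Of the mu class, Gstm1 had 149 and 156 TPM and Gstm5 had 116 and 119 TPM. The 3 genes were apart in both libraries. Gstm1 held 43.1 ± 0.0116% and Gstm5 33.2 ± 0.470% of the TPM of the 7 mu class genes. Over protein-coding transcripts, Gstp1 and Gstm1 were nearly level, at a ratio of 0.981 ± 0.0200, against 1.24 ± 0.00880 over all transcripts.

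The 2 libraries were compared by the ratio of replicate 1 over replicate 2, from expected counts scaled with edgeR's TMM method. With 2 libraries of 1 group no test could be made, since the smallest p of an exact sign-flip test is 0.5. All 36 genes had at least 1 CPM, and 2 of them, Hmox1 and Nqo1, differed by at least 0.32 on the log2 scale, the limit used here for a difference between libraries, against 8.40% of the 14887 genes tested. Hmox1 had 114 expected counts in replicate 1 and 85 in replicate 2, a ratio of 1.27 with a 95% exact binomial interval of 0.953 to 1.71. Nqo1 had 73 expected counts in replicate 1 and 94 in replicate 2, a ratio of 0.739 with an interval of 0.536 to 1.01. Both intervals, which cover counting error only, include 1. Across all genes tested, 5.35% were higher in replicate 1 by that limit and 3.04% in replicate 2, against 1 of the 36 genes in each direction. Txnrd2, with 264 expected counts in replicate 1 and 201 in replicate 2, lay just inside the limit, and its interval of 1.03 to 1.51 left out 1. Such an interval left out 1 in 8 of the 36 genes, which are Gpx1, Prdx2, Prdx5, Txnrd1, Txnrd2, Txnip, Selenop and Mt1, a share of 22.2%, and in 18.4% of all genes tested. The median ratio of the 36 genes was -0.019 on the log2 scale, against -0.0023 over all genes tested, and the median absolute ratio was 0.063, against 0.075. Under scaling by the ERCC spike-ins the median ratio of all genes moved to 0.18, 3 of the 36 genes (Txnrd2, Txnip and Hmox1) passed the limit, all higher in replicate 1, and so did 17.2% of all genes. Hmox1 had the highest and Nqo1 the lowest ratio of the 36 under both scalings. A change of scaling shifts all ratios nearly alike, so this order stays the same by construction.

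**Figure D2:**
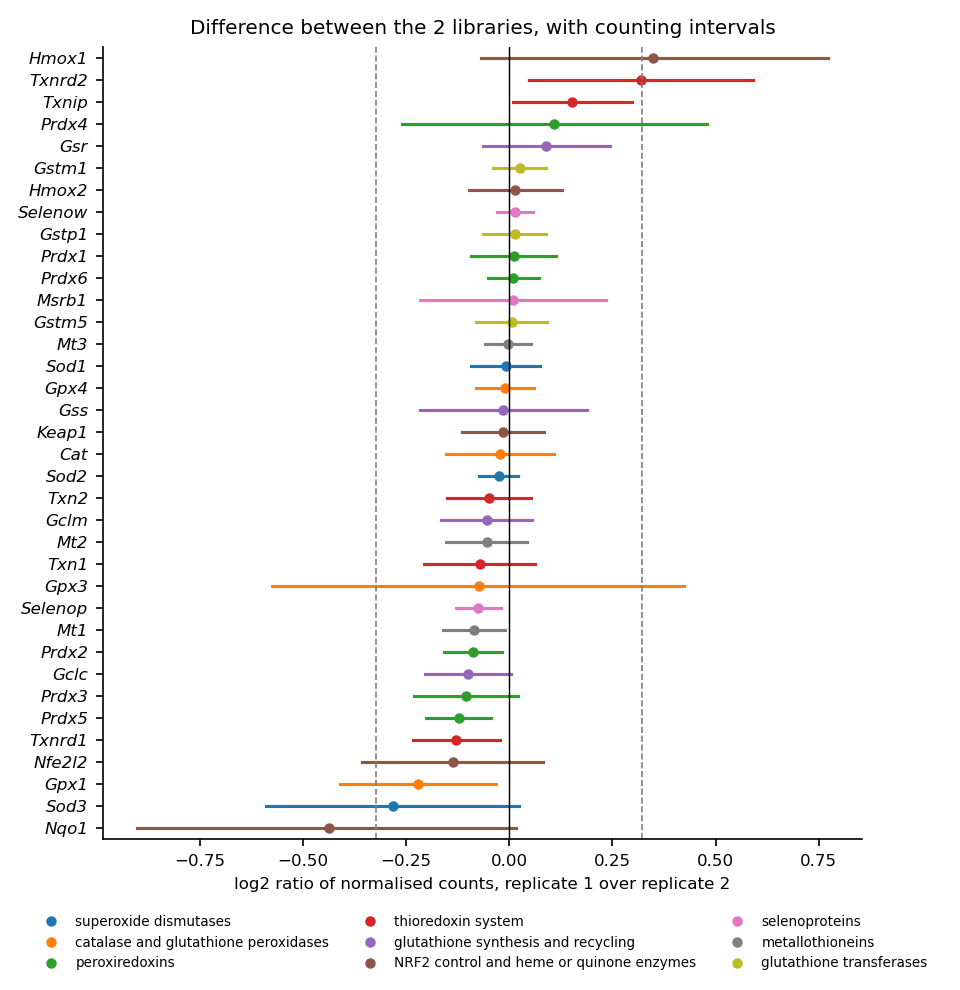
Log2 ratio of normalised counts, replicate 1 over replicate 2, for the 36 genes in order, with 95% exact binomial intervals for counting error; dashed lines mark 0.32, the limit for a difference. Hmox1 lies beyond the line on the right and Nqo1 beyond the line on the left, both with intervals that include 1.

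Total RNA holds unspliced and noncoding transcripts beside messenger RNA, so the TPM of each gene was divided by the annotated class of its transcripts. In 29 of the 36 genes, protein-coding transcripts held at least 80% of the TPM, against 66.7% of detected protein-coding genes. The 7 others were Sod2, Gpx4, Prdx2, Prdx6, Gclm, Gsr and Gstp1. Prdx6 was the most extreme: protein-coding transcripts held 14.1% of its TPM in replicate 1 and 12.3% in replicate 2. Its leading transcript was Prdx6-208, of 1294 bases, annotated as a target of nonsense-mediated decay (the route that destroys messages with an early stop), with 62.7% and 62.6%. The second quantification gave Prdx6-208 55.3% and 50.5%, so it led in both. Prdx6-202, with the full coding sequence of 672 bases, held 12.7% and 10.8% in the first quantification and 0.981% and 0.586% in the second. Prdx6-201, another protein-coding transcript, held 1.43% and 1.46% in the first and 9.95% and 10.5% in the second. The protein-coding share of the gene thus fell far less than that of Prdx6-202.

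Sod2 was the other gene whose leading transcript in the first quantification was not annotated as protein-coding, and it kept that transcript in the second, where Prdx2-205 (retained intron, 42.6%) and Gclm-202 (processed transcript, 44.5%) also led their genes. Sod2-207, a processed transcript of 1138 bases with no coding sequence, held 39.5% and 42.7% of Sod2 TPM in replicates 1 and 2. The coding transcript Sod2-201, of 5861 bases, held 36.4% and 37.4%. By expected counts, without correction for length, the order was the other way: Sod2-201 had 5588 and 5416 counts, and Sod2-207 had 1094 and 1115. The share of Sod2-207 is thus a statement per length and not per read.

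Other shares of noncoding transcripts rested on the quantification. Gpx4-203, a retained-intron transcript of 280 bases, held 29.0% and 25.5% of Gpx4 TPM in the first quantification and 0 in the second. That share too is per length: Gpx4-203 had 283 and 229 expected counts in replicates 1 and 2, against 2114 and 2072 for Gpx4-202. Gpx4-202 and Gpx4-201, both coding, held 62.8% and 36.5% in replicate 1 and 25.1% and 74.5% in replicate 2 of the second quantification, so that they changed places between libraries there. Gstp1-203, a retained-intron transcript, held 28.2% and 30.1% in the first and 0 in the second, where Gstp1-206, another such transcript, held 34.8% and 34.4%. In Prdx2 retained introns held 31.9% in the first and 43.7% in the second. In Gclm the protein-coding share was 74.8% in the first and 38.7% in the second, where the processed transcript Gclm-202 held 44.5%. Of the 31 genes with several transcripts, 20 had the same leading transcript in both quantifications, against 76.4% of detected protein-coding genes. The 11 that did not were Gpx1, Gpx4, Prdx1, Prdx2, Prdx5, Txnrd1, Txnrd2, Gclm, Keap1, Hmox2 and Mt2. In Mt2, Mt2-202 with a coding sequence of 228 bases held 52.6% in the first quantification and 0 in the second, where Mt2-201 held 100%. For these genes the leading isoform rests on the quantification.

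**Figure D3:**
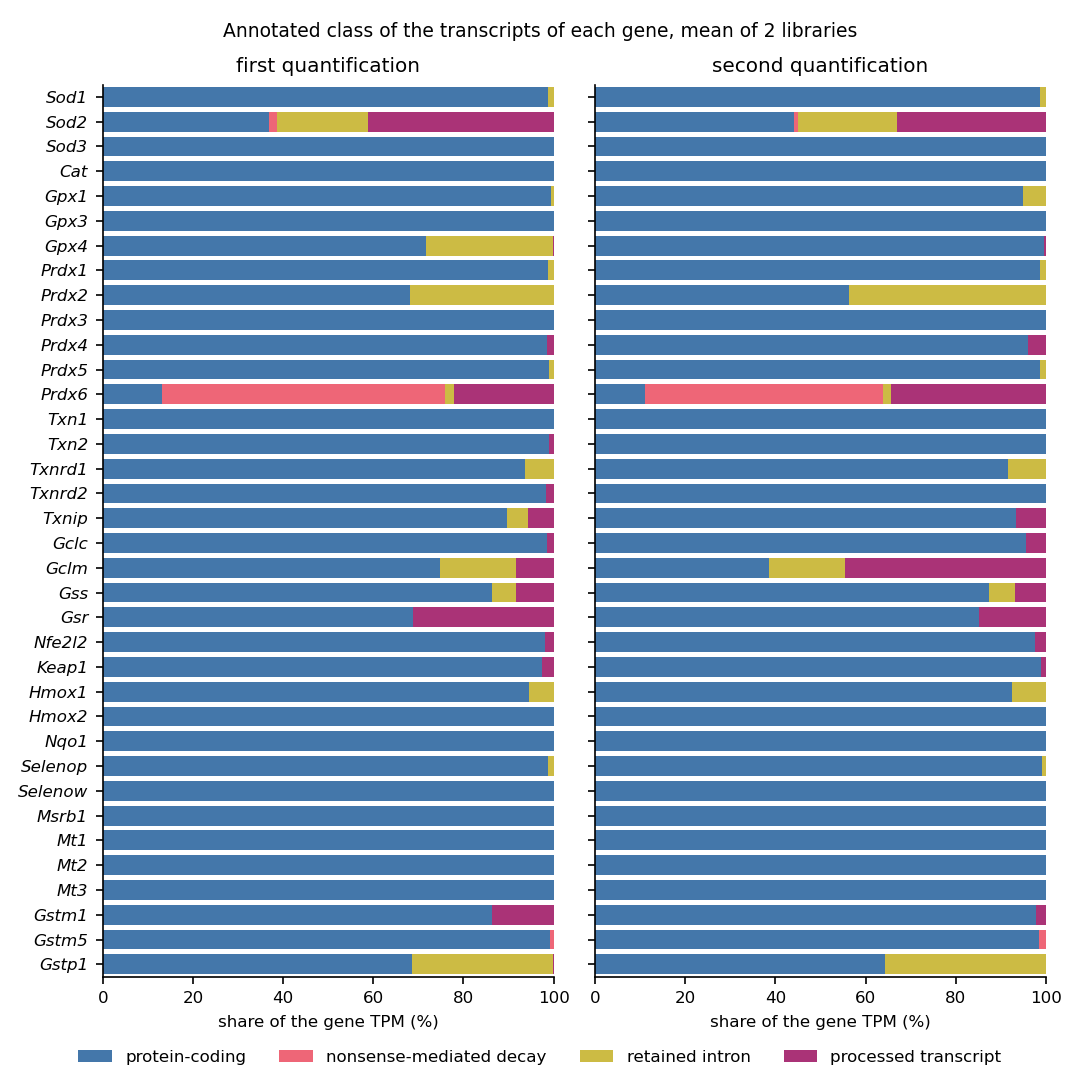
Share of each gene's TPM (%) held by transcripts annotated as protein-coding, nonsense-mediated decay, retained intron or processed transcript, in the first (left) and second (right) quantification, as the mean of the 2 libraries. Prdx6 and Sod2 have the lowest protein-coding shares on the left, and Prdx6, Gclm and Sod2 on the right. Gpx4 differs between the panels, with 71.7% on the left and 99.5% on the right.

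The second quantification gave higher TPM for each of the 36 genes, and over detected protein-coding genes its median was 1.63-fold above the first. Nuclear protein-coding genes took 40.7% and 42.5% of all TPM in replicates 1 and 2 of the first, and 70.1% and 73.0% of the second. Relative to the median shift, the 36 genes lay between -0.22 and 0.94 on the log2 scale, 31 of them within 0.5. The 5 beyond were Gclm at 0.94, Mt3 at 0.78, Prdx2 at 0.73, Mt1 at 0.60 and Gstp1 at 0.53. The place of the leading genes changed with this. Mt3 had 1324 and 1380 TPM in the second quantification and Selenow had 880 and 913 TPM, so that the ratio of Selenow to Mt3 was 0.663 ± 0.00227 there and 1.18 ± 0.0104 in the first. The 2 tables correct for length differently: the first takes 99 bases off each transcript, and the second a median of 339 bases off transcripts over 1000 bases. Mt3-201 is 536 bases long and Selenow-201 is 736 bases long. Whether length correction makes the difference was not tested.

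**Figure D4:**
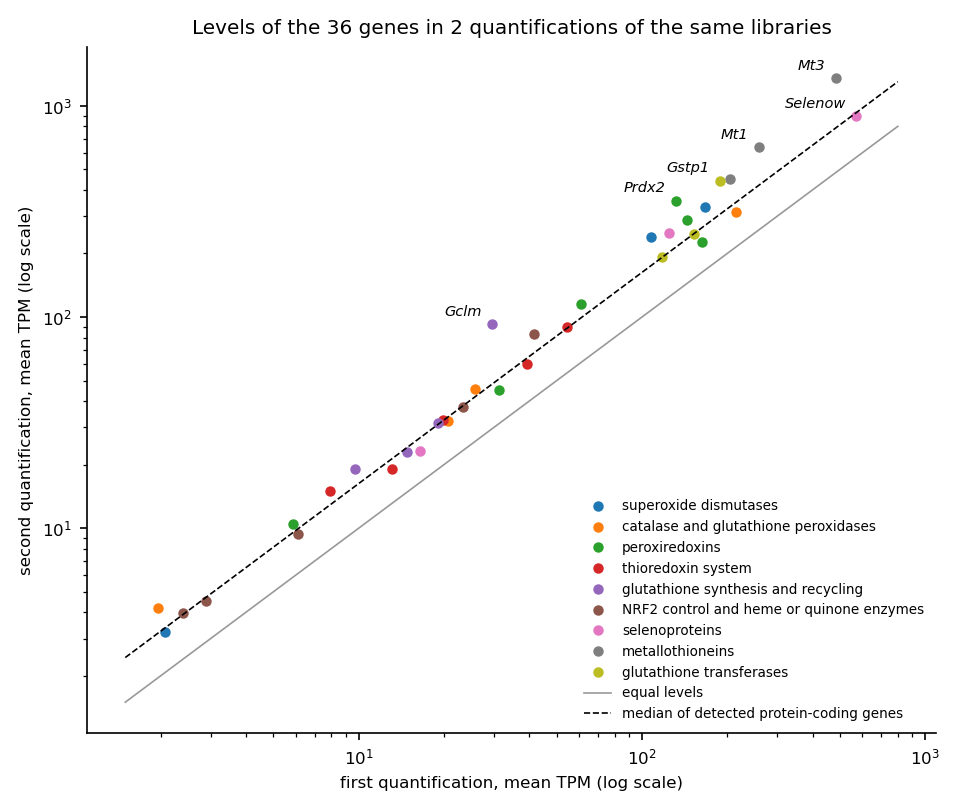
Mean TPM of each of the 36 genes in the first (x) and second (y) quantification, both log axes, with the line of equal levels and the median shift of detected protein-coding genes (dashed). Gclm, Mt3, Prdx2, Mt1 and Gstp1 lie farthest above the dashed line, and Mt3 passes Selenow on the y axis.

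Some of these genes share sequence with others, so that reads may be assigned to either. An annotated transcript at least 95% identical to the leading transcript over at least 100 bases was found for 15 of the 36 genes, and in 6 of them that other gene had a mean TPM of at least 1. Gstp2, a close copy of Gstp1 (98.2% identical over 707 bases), had 30.2 and 22.7 TPM in replicates 1 and 2, and 41.1 and 9.43 TPM in the second quantification. Reads of the pair may be split either way, so both levels are uncertain. The pseudogene Gpx4-ps2 (99.7% identical over 762 bases) had 13.6 and 15.8 TPM, and 0 and 0.585 TPM in the second quantification. The matching gene is not always a separate copy. Hmox2, Gstm5 and Prdx2, which are also among those 6 genes, matched neighbours that they overlap on the opposite strand. Hmox2 overlaps Cdip1 (97.2 and 100 TPM) and Gstm5 overlaps 4933431E20Rik (22.0 and 22.7 TPM). Prdx2 overlaps Junb (40.42 and 35.96 TPM) and Rnaseh2a (18.2 and 18.4 TPM). The spike-in label names stranded libraries, but whether the counting used strand is not given in the sources used here. Sod1 with Scaf4, Prdx5 with Trmt112, Gclm with Gm17494 and Gss with Acss2 are further pairs on opposite strands, at 1.37 to 22.1 TPM for the partner. Cdip1 had a higher TPM than Hmox2, and the part of its reads in the level of Hmox2 was not tested.

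Promoter windows of 250 bases before to 50 bases after the start, from RefSeq on GRCm38.p6, were matched for 31 of the 36 genes (41 windows). The core of the antioxidant response element, TGACNNNGC on either strand, was in 7 of the 41 windows, or 17.1%, against 12.4% of 32851 promoters. The 7 belong to Sod1, Prdx1, Txnrd1, Gclm, Nfe2l2, Mt2 and Gstm5. Sod3, Prdx6, Gclc, Gsr and Hmox1 had no matched window, so neither element was looked for in them. The core of the metal response element, TGCACNC or TGCGCNC on either strand, was in 26.8% of the windows, against 25.7% of all promoters, so its presence is near the background. Mt2 held 4 matches, Mt1 and Gclm held 3 each, Selenow held 2, and Mt3 held 1, as did the other genes with a match. At least 3 matches were found in 1.97% of all promoters and at least 4 in 0.517%. A match is a stretch of letters and not a measured binding site.

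The wider pathway was read from 109 other genes, of which 89 were detected, with a median of 8.47 ± 0.453 TPM. Between the libraries 4 of the 88 with at least 1 CPM passed that limit, against 8.40% of all genes tested. They are Gstt1, higher in replicate 1, and Gpx8, Ggt5 and Cyba, higher in replicate 2; they are named because the count is small. Beside the peroxide-removing enzymes, 5 of 8 genes were detected, led by Park7 (94.9 and 102 TPM), whose protein protects against oxidants, and Ccs (13.1 and 13.0 TPM), the copper chaperone of SOD1. All 10 further genes of the thioredoxin and glutaredoxin system were detected. Glrx2 led them with 45.0 and 45.6 TPM, and Txnrd3, with 1.59 and 1.43 TPM, was the lowest. In glutathione supply and turnover 11 of 12 were detected, with Glo1 (78.4 and 83.9 TPM), Slc3a2 (60.3 and 61.5 TPM), Hagh (51.0 and 54.0 TPM) and Ggt7 (47.2 and 44.3 TPM) on top and Ggt5 (0.65 and 1.37 TPM) at the bottom. Of 22 further glutathione transferases 16 were detected. Gstm7 (67.6 and 72.8 TPM) was below Gstm5 in both libraries, and Gstm3 had 0 counts.

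The NRF2 list had 19 of 20 genes detected. It was led by Fth1 (1477 and 1532 TPM), the ferritin heavy chain, Sqstm1 (192 and 197 TPM), an autophagy adaptor, Nfe2l1 (95.4 and 103 TPM), a relative of NRF2, and Ftl1 (90.6 and 88.2 TPM), the ferritin light chain. Maff, a small MAF partner of NRF2, was lowest with 0.81 and 1.04 TPM. Nfe2l1 was thus far above Nfe2l2 in both libraries. Selenoproteins and selenium supply had 17 of 18 detected, with Selenof (82.7 and 93.1 TPM), Selenom (76.6 and 77.3 TPM), Selenot (57.8 and 59.9 TPM) and Selenok (44.5 and 46.3 TPM) at the top, each below Selenow and Selenop. The methionine sulfoxide reductases Msra (35.1 and 35.7 TPM), Msrb2 (13.3 and 13.2 TPM) and Msrb3 (1.61 and 1.78 TPM) were all detected, and Msrb1 lay between Msra and Msrb2. Of zinc handling, 4 of 5 genes were detected, from Slc30a3, the synaptic vesicle zinc transporter, with 37.0 and 34.3 TPM, to Mtf1, the metal-sensing factor that drives metallothionein genes, with 10.3 and 9.45 TPM. Of 11 oxidant-producing enzymes on the list, 4 were detected: Xdh (8.54 and 9.57 TPM), Maob (7.87 and 8.67 TPM), Maoa (5.74 and 5.98 TPM) and Cyba (4.24 and 5.51 TPM).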

How the data were processed

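Total RNA-seq of 2 hippocampus libraries was used, grouped by the labels. The authors deposited, per library, a gene table and a transcript table with expected counts (estimated counts, not normalized), TPM, the percent of gene TPM per transcript and posterior bounds (scores, not used for any value here), per the file headers. They also deposited a second transcript table with estimated counts and TPM. Per the deposited notes, the build is mm10 with GENCODE M21. The aligner, the counting tools, their settings and the use of strand are named in no source used here. As mm10 is a C57BL/6J assembly, reads from CAST/EiJ alleles may map less well.

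Members and lists were chosen with earlier results of these data known. All 36 members are named, with up to 4 of the highest and the lowest of each other pathway list, near-identical copies and opposite-strand neighbours at a TPM of at least 1. Expected counts were rounded and scaled with TMM in edgeR 4.0.16 (R 4.3.3), prior count 0.5. A library difference was at least 0.32 on the log2 scale at a mean CPM of at least 1. DESeq2 1.42.0 size factors, ERCC scaling, other thresholds, the posterior mean TPM, the second table and leaving out each library were alternatives. Tested on simulated counts of 55536 genes for replicate 1 over replicate 2, the limit called 940 of 14676 unchanged genes, 4 of 50 at 1.1-fold, 49 of 50 at 1.5-fold and 50 of 50 at 2-fold and at 3-fold. The simulation assumed a coefficient of variation of 0.05 beyond counting error. Its changed genes were drawn from those with at least 5 CPM, above Hmox1 (2.96 CPM) and Nqo1 (2.51 CPM), so their recovery does not describe these 2 genes. Over 19837 genes the libraries differed by a chi-square of 7.79 per degree of freedom, so they are not copies of each other. Copies were found with blastn 2.17.0. The values of 1 overlapping gene are not reported here. Figures were drawn with matplotlib 3.10.9. Depth was 34563482 and 32370292 expected counts over genes, and intervals and floors cover counting error only.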

Additional observations from a re-analysis of the deposited data

How the results depend on the processing

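With 2 libraries of 1 group there is no test, and no result here has a p-value. All 36 genes stayed detected in the second table, by posterior mean TPM, after rescaling and without either replicate, and 32 did at 5 TPM. The median level of the 36 genes was 71.6 TPM in the second table, 84.8 TPM after rescaling to nuclear protein-coding genes and 44.0 CPM without length correction. The matching medians of detected protein-coding genes are not given here, so these 3 values cannot be set against the 14.5 TPM of the first table. Genes differing between the libraries numbered 6 at 1.1-fold, 0 at 1.5-fold and 0 when the mean CPM had to reach 5. They numbered 2 with DESeq2 size factors and 2 with library size alone, against 8.50% and 8.26% of all genes tested. With ERCC scaling and in the second table they numbered 3 each, against 17.2% and 9.92% of all genes tested. The shares of all genes passing under the first 3 of these settings are not given here, so those counts have no background. Family shares moved by more than the SD as follows. In the second table the share was 57.8% for Sod1, 84.7% for Gpx4, 21.7% for Prdx5, 59.9% for Txn2, 55.5% for Mt3, 41.5% for Gstm1 and 94.8% for Hmox2. With protein-coding transcripts alone it was 79.8% for Sod1, 83.2% for Gpx4, 43.8% for Prdx5 and 39.7% for Gstm1. With expected counts not corrected for length it was 24.3% for Sod1, 83.8% for Gpx4, 20.2% for Prdx5, 63.4% for Txn2, 81.3% for Txnrd1, 52.6% for Mt3 and 45.7% for Gstm1. By posterior mean TPM Gstm1 held 42.8%. The length correction and the transcripts counted differ by construction, and the cause of the other moves was not tested. Single levels changed by 1.39 to 3.13 times in the second table, by 0.931 to 1.17 times by posterior mean, and by 2.39 to 2.41 times after rescaling. No paired analysis was possible because there is only 1 group.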
